A study of Homo sapiens with 4 samples.

Results

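Windows of intermediate DNA methylation with many CpGs were examined on the autosomes of HUDEP-2 cells, an immortalised line of human erythroid precursors that normally makes adult haemoglobin. They were chosen by their levels, as non-overlapping 1 kb windows on chromosomes 1 to 22 with at least 15 CpGs listed in all 4 libraries and a methylation level of 40 to 60% in each of 3 libraries. These were 58952 of 399755 windows with 15 or more such CpGs, or 14.7%. They were then divided by their single CpGs, with the reads of the 3 choosing libraries summed. A window was called uniform where at least 75% of its CpGs stood at 30 to 70%, and mixed otherwise. Only 100 windows were uniform and 58852 were mixed. Levels in the 3 choosing libraries and the evenness of single CpGs are therefore descriptions. The level in the DNMT1 inhibitor library was not used in the choice, apart from the demand that its CpGs be listed.

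Whole-genome bisulfite sequencing had been done on 4 libraries of this 1 line, 1 library per group. The choosing libraries came from non-differentiated untreated cells, from cells differentiated with the vehicle DMSO, and from cells differentiated with an EED inhibitor. The remaining library came from cells differentiated with a DNMT1 inhibitor. Vehicle and compounds, at 0.1% DMSO, were added at expansion and kept through both differentiation stages, growth for 4 days and maturation for 2 days; the compounds and doses are not named in the labels, which state that cells given either inhibitor made more fetal haemoglobin.

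At an imprinted gene, CpGs of a control region are methylated on the copy inherited from one parent and unmethylated on the other, so reads pooled over both copies give an intermediate level at every CpG of the region. Such marks are set in the germ line and are copied at each cell division by DNMT1, with the help of zinc finger proteins such as ZFP57 that bind the methylated copy. An intermediate level can equally come from cells that differ from one another, or from a window in which methylated and unmethylated CpGs lie side by side. The deposited tables hold levels per CpG without the phase of reads, so methylation was not assigned to either copy here.

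The stretches below are examples from uniform windows near imprinted genes, beside a uniform window of very high coverage and a mixed window for contrast. Each is the stretch of 200 bases with the most shared CpGs in its window, outside annotated untranslated regions, on the plus strand of hg38. Capitals mark the CpGs.
GNAS, chr20:58841016-58841215: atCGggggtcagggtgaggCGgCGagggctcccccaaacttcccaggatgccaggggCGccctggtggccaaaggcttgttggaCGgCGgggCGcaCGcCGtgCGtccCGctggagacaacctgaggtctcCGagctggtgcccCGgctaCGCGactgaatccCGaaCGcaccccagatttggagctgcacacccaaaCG
PEG10, chr7:94656794-94656993: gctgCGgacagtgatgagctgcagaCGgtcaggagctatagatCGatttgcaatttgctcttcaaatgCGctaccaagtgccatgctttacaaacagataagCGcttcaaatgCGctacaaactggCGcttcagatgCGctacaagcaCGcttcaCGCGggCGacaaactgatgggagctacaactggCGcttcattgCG
NAP1L5, chr4:88697512-88697711: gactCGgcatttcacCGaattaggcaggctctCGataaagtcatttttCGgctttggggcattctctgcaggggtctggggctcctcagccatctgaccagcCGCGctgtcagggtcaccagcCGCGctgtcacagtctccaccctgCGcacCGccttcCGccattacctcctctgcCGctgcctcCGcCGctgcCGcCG
DIRAS3, chr1:68050001-68050200: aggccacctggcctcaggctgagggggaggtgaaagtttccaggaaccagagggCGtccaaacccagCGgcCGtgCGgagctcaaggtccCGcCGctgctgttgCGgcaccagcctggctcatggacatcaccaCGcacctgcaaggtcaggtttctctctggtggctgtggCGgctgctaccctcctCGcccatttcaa
ENSG00000278996, chr21:8219523-8219722: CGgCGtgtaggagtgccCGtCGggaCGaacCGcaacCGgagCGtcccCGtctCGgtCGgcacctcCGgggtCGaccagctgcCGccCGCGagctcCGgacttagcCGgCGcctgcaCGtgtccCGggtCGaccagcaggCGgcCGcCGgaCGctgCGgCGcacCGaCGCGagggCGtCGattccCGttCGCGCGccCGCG
LINGO3, chr19:2291454-2291653: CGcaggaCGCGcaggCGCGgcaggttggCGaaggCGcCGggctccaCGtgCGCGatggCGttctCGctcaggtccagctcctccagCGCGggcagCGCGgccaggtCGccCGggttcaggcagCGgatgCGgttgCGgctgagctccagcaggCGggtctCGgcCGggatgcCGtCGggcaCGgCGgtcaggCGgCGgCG
In the GNAS stretch all 18 CpGs were shared, and they stood between 31.7% and 45.2% with the 3 libraries summed. The libraries differed there, at 32.3% in non-differentiated cells, 47.4% in DMSO and 32.2% with the EED inhibitor. The 14 CpGs of the PEG10 stretch stood between 29.2% and 44.5%, and the 16 of the NAP1L5 stretch between 29.03% and 42.7%. The range was wider in the DIRAS3 stretch, from 14.7% to 49.3% over 10 CpGs, and it was 39.9% to 69.97% over the 39 CpGs of ENSG00000278996. In the stretches of PPIEL and MEG3, not printed here, it was also wider, at 36.5% to 86.9% and 13.2% to 43.3%. The 32 CpGs of the LINGO3 stretch, in a mixed window, ran from 18.3% to 94.5%. By the rule, uniform and mixed windows are told apart by the share of their CpGs at 30 to 70% and not by the lowest or highest CpG.

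The depth allowed about 28.3 to 31.1 reads per shared CpG and library over 22761441 autosomal CpGs, and over these the level was 61.8% in non-differentiated cells, 60.3% in DMSO, 59.3% with the EED inhibitor and 16.8% with the DNMT1 inhibitor. With 1 library per group no spread between replicates exists, so Fisher's exact tests here compare the reads of 2 libraries and not the conditions. Intervals are 95% Wilson intervals. They cover counting error alone, and they count each read at each CpG as independent. PCR copies were not told apart by molecular identifiers and 1 read can span several CpGs. The intervals are therefore likely too narrow even for counting error. Promoters of erythroid genes ranged from 2.12% at KLF1 to 83.5% at SLC4A1 in DMSO and those of genes of other blood cells from 18.7% at CD14 to 81.7% at LYZ. These levels overlapped, and methylation of a promoter does not by itself identify a cell type.

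Uniform windows were rare and stood at the end of a continuous distribution. The share of CpGs at 30 to 70% had a median of 29.4% over all intermediate windows. Just below the limit, 90 windows had 70 to 75% of their CpGs in that range; just above it, 36 windows had 75 to 80%, 48 had 80 to 90% and 16 had 90 to 100%. At the lower level limit, 2593 windows had their lowest library at 40 to 41% and 2298 dense windows were left out at 39 to 40%. At the upper limit, 5797 windows stood at 59 to 60% and 5732 were left out at 60 to 61%. At the CpG limit, 11476 windows had exactly 15 CpGs, while 14029 windows with 14 CpGs had levels in range. None of these limits fell in a gap between kinds of window. In the mixed windows the intermediate level was an average over unlike CpGs: 31.7% of their CpGs were under 30%, 29.5% at 30 to 70% and 38.8% over 70%.

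**Figure D1:**
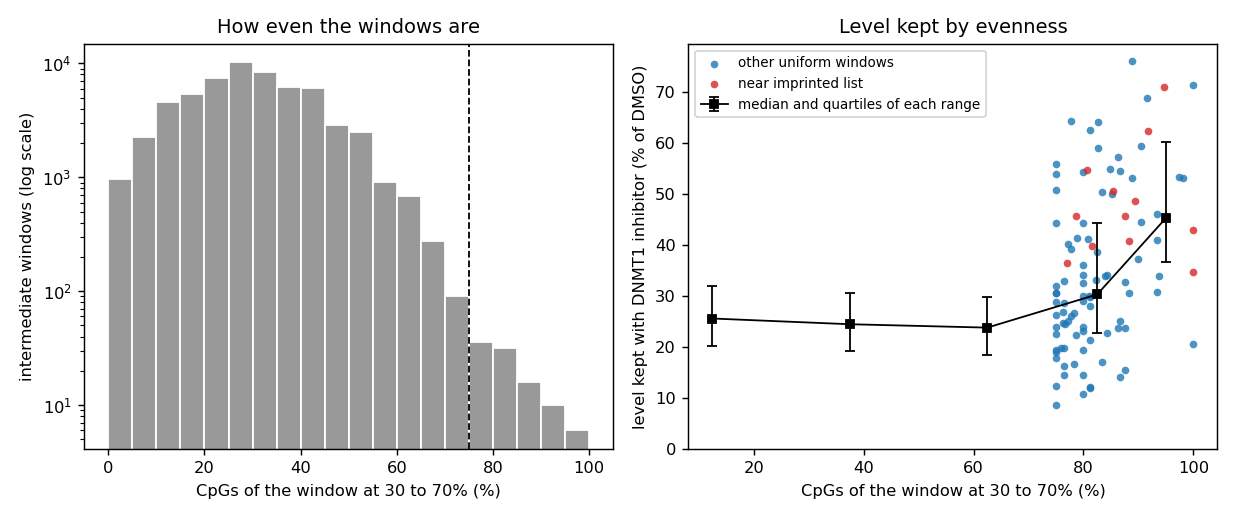
Evenness of the 58952 intermediate windows. Left, number of windows (log scale) by the percent of their CpGs at 30 to 70%, with the 75% limit dashed. Right, level with the DNMT1 inhibitor as a percent of the DMSO level against the same share, with 1 point per uniform window and squares for the median and quartiles of all intermediate windows in 5 ranges; the median lies at 23.8 to 25.6% in the 3 ranges up to 75% and at 45.3% in the range from 90 to 100%.

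Imprinted genes were frequent beside the uniform windows. A list of 61 imprinted or reported imprinted genes, each taken with 5 kb on either side, held a uniform window at 12 genes (19.7%), against 115 of 37501 autosomal protein-coding and lncRNA genes (0.307%). The 12 genes were PPIEL, DIRAS3, HERC3, NAP1L5, SGCE, PEG10, FANCC, MEG3, ZNF597, NAA60, GNAS and GNAS-AS1. They share windows where genes overlap or lie close, so they rest on 12 windows at 8 loci. An intermediate window of either kind lay at 39 of the 61 genes (63.9%), against 41.3% of all genes. Genes differ in size, and a gene with more windows has more occasions to hold one. By windows, 186 of 58952 intermediate ones (0.316%) lay near the list, against 1853 of all 399755 with 15 or more CpGs (0.464%). Near the list, intermediate windows were thus less frequent by window. The list held 12 of the 100 uniform windows (12%) and 174 of the 58852 mixed ones (0.296%), against the same 0.464%. No uniform window lay at 30 germline genes, 53 clustered protocadherin genes or 39 HOX genes. At the 0.307% of all genes, these lists together would hold less than 1 such gene, so nothing is read from their count. Mixed windows lay at 18, 52 and 17 of them (60%, 98.1% and 43.6%), against the 41.3% of all genes with an intermediate window. Genes that lie close can share a window, so these are counts of genes and not of windows. Of 553 zinc finger genes, 5 had a uniform window (0.904%). They include ZNF597, already counted in the imprinted list, and ZNF394 and ZNF789, which share a window. The window near ZFP37 had 2.22 times the mean coverage, and nothing is read from so few genes.

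The GNAS locus on chromosome 20, which makes the alpha subunit of the stimulatory G protein and several transcripts with their own imprinted promoters, held 5 uniform windows. GNAS-AS1 is the antisense transcript of the same locus. The window from 58841001 to 58842000, over exon 4 of GNAS-AS1, had 66 shared CpGs of 85 in the reference. Its level was 47.1% in non-differentiated cells (interval 44.2 to 50.1), 56.6% in DMSO (53.7 to 59.5), 50.3% with the EED inhibitor (47.4 to 53.2) and 27.5% with the DNMT1 inhibitor (25.2 to 29.97). The next window, from 58842001 to 58843000 over exons 3 and 4 of GNAS-AS1, had 41 CpGs and stood at 51.9%, 46.9%, 50.5% and 23.7% in the same order. Together these formed 1 of only 2 runs of adjacent uniform windows, the other 96 uniform windows being single. A window in an intron of GNAS and GNAS-AS1 from 58839001 read 49.7%, 49.2%, 48.7% and 17.1% over 15 CpGs. Another in an intron of GNAS from 58854001 read 48.8%, 42.2%, 54.96% and 18.2% over 22 of its 98 CpGs. The last, from 58888001, holds the start of the lncRNA ENSG00000225806 and read 43.7%, 42.5%, 45.7% and 15.5% over 26 CpGs. In all 5 the DNMT1 inhibitor library was the lowest, and what it kept of the DMSO level ranged from 34.7% to 50.7%.

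PEG10, a gene derived from a retrotransposon, and SGCE, which encodes epsilon-sarcoglycan, start from a shared control region on chromosome 7. The window from 94656001 to 94657000 holds exon 1 of both. Over 38 of 65 CpGs it read 40.5% in non-differentiated cells (37.4 to 43.6), 41.8% in DMSO (38.6 to 45.01), 43.2% with the EED inhibitor (39.9 to 46.5) and 29.7% with the DNMT1 inhibitor (26.8 to 32.7). It kept 71.1% of the DMSO level, the most of the 12 windows. By Fisher's exact test, this change of −12.1 points gave an adjusted p of 1.11e-07, which counts CpGs of the same read as independent, and of 0.560 when the window's reads were divided by its number of CpGs. In this window 8 of 38 CpGs read higher with the DNMT1 inhibitor than in DMSO.

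NAP1L5 encodes a nucleosome assembly protein-like factor and lies as a single-exon gene within an intron of HERC3 on chromosome 4. Its window, from 88697001 to 88698000, read 47.4%, 41.5% and 47.9% in the 3 choosing libraries and 25.9% with the DNMT1 inhibitor (22.6 to 29.5) over 36 of 55 CpGs. The 2 sides of the window differed. Its 30 CpGs after the centre stood at 36.0% in DMSO and at 32.2% with the inhibitor, and 10 of them were higher with the inhibitor. The 6 CpGs before the centre read 64.2% and 10.3%. With CpGs of at least 20 reads only, the difference of −15.6 points over the whole window became −33.3 points, so the value depended on which CpGs were counted.

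DIRAS3, a small GTPase with growth-suppressing activity, had its start in a window from 68050001 to 68051000 on chromosome 1. All 47 CpGs of the window were shared, and it read 45.8%, 45.2%, 44.97% and 20.6% (18.4 to 23.1). These 3 choosing values lay within 1 point of one another. PPIEL, a non-coding relative of a peptidylprolyl isomerase gene, read 54.3%, 55.3%, 53.5% and 22.05% over 38 CpGs at its exon 1 (chromosome 1, 39559001 to 39560000). An intronic window of FANCC, a gene of the Fanconi anaemia pathway, read 51.0%, 56.8%, 46.6% and 23.2% (chromosome 9, 95313001 to 95314000, 34 CpGs). At FANCC the DNMT1 inhibitor value exceeded the DMSO value at none of the 34 CpGs.

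MEG3 is a maternally expressed long non-coding RNA. Its uniform window, in an intron of the annotated gene from 100826001 to 100827000 on chromosome 14, read 41.9%, 45.3%, 40.7% and 24.7% over 36 of 49 CpGs. ZNF597, a zinc finger gene, and NAA60, an N-terminal acetyltransferase gene, start from opposite strands on chromosome 16. The window from 3444001 to 3445000, next to both starts, read 54.2%, 46.1%, 53.0% and 21.1% over 16 CpGs. The window that holds both starts, from 3443001, was looked at after its values were seen. It had 53 CpGs, 81.1% of them at 30 to 70%, and read 49.4%, 38.2%, 48.7% and 25.0%. Its DMSO level lay outside the rule, and it kept 65.4% of that level. Over the 12 uniform windows near imprinted genes the DNMT1 inhibitor level had a median of 22.6% and ran from 15.5% to 29.7%. DMSO ran from 41.5% to 56.8%. In each of the 12 the interval of the DNMT1 inhibitor library lay below those of the other libraries. A difference from DMSO was general. Of all 399755 windows with 15 or more CpGs, 394469 had an unadjusted p under 0.05 by Fisher's exact test. The share of all windows with separate intervals was not counted, so nothing particular to the 12 is read from this. Mean coverage there was 11.7 to 32.6 reads per CpG and library.

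**Figure D2:**
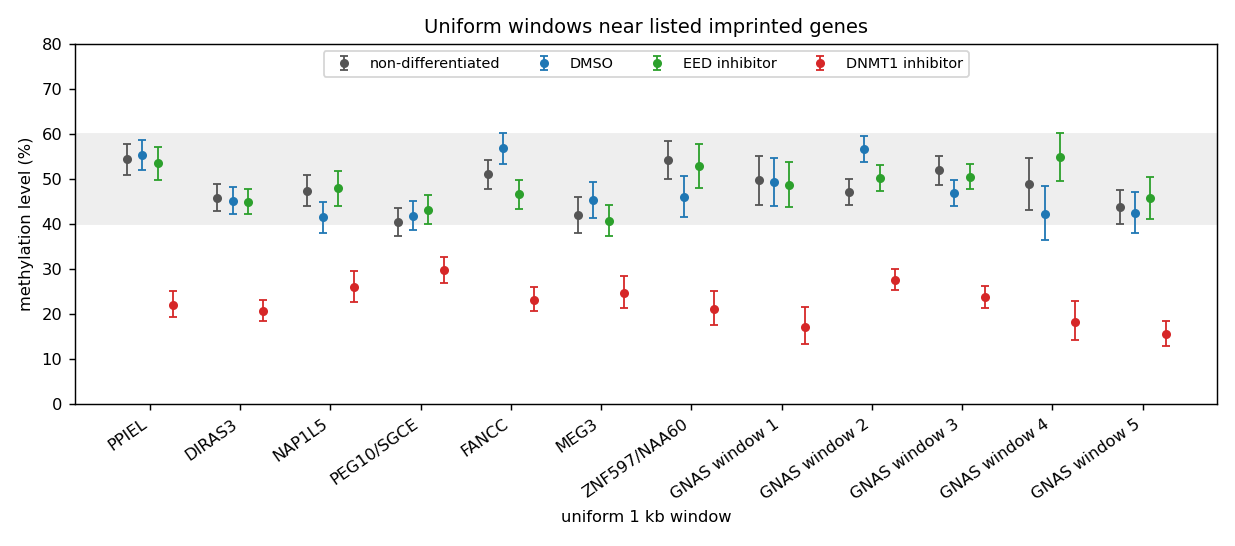
Methylation level in percent of the 12 uniform windows near listed imprinted genes, 1 point per library with its 95% Wilson interval, and the 40 to 60% range shaded. GNAS windows are numbered along the chromosome. The 3 choosing libraries lie in the shaded range by the rule, and the DNMT1 inhibitor points lie between 15.5% and 29.7%.

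**Figure D3:**
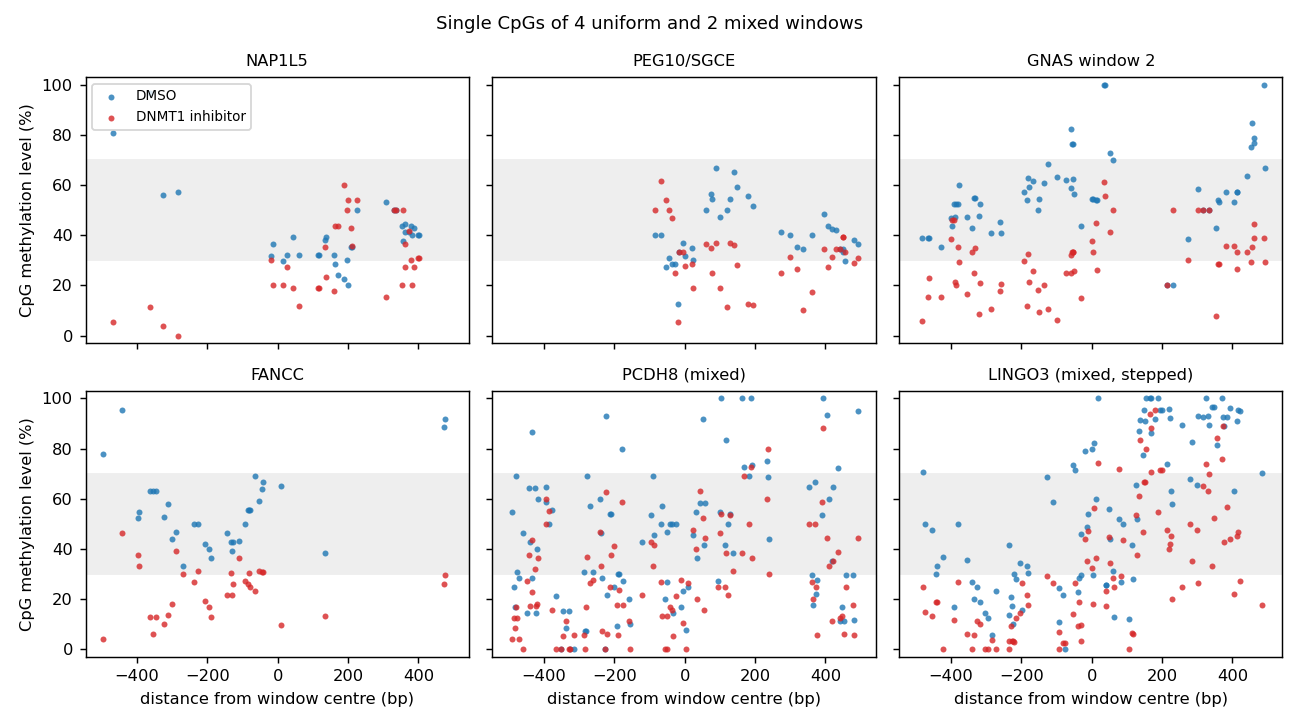
Level in percent of single CpGs in DMSO and with the DNMT1 inhibitor, against distance from the window's centre in bp, in 4 uniform windows near imprinted genes and 2 mixed windows, with the 30 to 70% range shaded. In the NAP1L5 window the 30 CpGs after the centre read 36.0% and 32.2%; in the LINGO3 window the sides differ, at 34.7% and 72.9% in DMSO.

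The 3 mixed windows with the most CpGs are given for contrast. PCDH8, a protocadherin gene outside the clustered families, had 109 shared CpGs in a window over its exon 1 (chromosome 13, 52847001 to 52848000). The level was 42.2%, 43.7%, 45.3% and 26.0%, and 51.4% of its CpGs stood at 30 to 70%. Its single CpGs ran from 4.17% to 97.9%, a range also seen in uniform windows, such as 3% to 95.4% at DIRAS3. The exonic window of LINGO3, which encodes a leucine-rich repeat membrane protein, had 102 CpGs (chromosome 19, 2291001 to 2292000) and read 55.7%, 56.5%, 59.6% and 31.1%. Before its centre 43 CpGs read 34.7% in DMSO and 13.5% in the DNMT1 inhibitor library, and after it 59 CpGs read 72.9% and 47.0%. The window at TMEM30B, a subunit of lipid flippases, had 93 CpGs and read 44.6%, 45.2%, 46.0% and 24.0% (chromosome 14, 61280001 to 61281000). These 3 windows kept 59.4%, 54.97% and 53.1% of the DMSO level, against a median of 54.6% over the 5 uniform windows with 50 or more CpGs. LINGO3 was 1 of 9743 stepped windows, in which a single position parts a side under 30% from a side over 70%, with at least 4 CpGs on each.

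With the DNMT1 inhibitor, 58017 of 58952 intermediate windows were called lower than DMSO, or 98.4%, and none was called higher. A call needed an adjusted p under 0.01 by Fisher's exact test, with Benjamini-Hochberg adjustment over 2350609 windows, and a difference of at least 25 points. Over all windows with at least 3 CpGs 81.5% were called, and over those with 15 or more CpGs 92.5%. These backgrounds hold windows that start near 0 and cannot fall by 25 points, while every intermediate window starts at 40% or more. Of the uniform windows 74 of 100 were called, and of the 12 near imprinted genes 5 were, namely those of PPIEL, FANCC and GNAS from 58839001, 58841001 and 58888001. The other 26 uniform windows fell by less than 25 points. All 100 passed the adjusted p alone, the highest being 9.54e-05 by Fisher's exact test. So did 58951 of the 58952 intermediate windows, so this count does not set the uniform windows apart. Of the 399755 windows with 15 or more CpGs, 394469 had an unadjusted p under 0.05 by that test. With the reads of each window divided by its number of CpGs, 39 uniform windows passed the adjusted p alone. None of the 12 near imprinted genes did, the lowest of these being 0.0251 at FANCC. The share of all windows passing the adjusted p alone in this way was not counted. With the 25 points as well, 38 uniform windows and 56.5% of intermediate windows were called, against 75.9% of windows with 15 or more CpGs. Which imprinted windows were called also changed with other settings. The GNAS window from 58888001 missed the 25 points with CpGs of at least 20 reads (−23.9 points) and with unweighted means over CpGs (−23.1 points). With CpGs of at least 20 reads, the windows of DIRAS3, ZNF597 and NAA60, NAP1L5 and GNAS from 58842001 gained the call, at −25.2, −27.3, −33.3 and −27.6 points. MEG3 and GNAS from 58841001 and 58854001 gave no value under that setting.

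Uniform windows kept more of their methylation than mixed windows did. The median level with the DNMT1 inhibitor was 16.3% over uniform windows, with a range of 3.72 to 42.8%, and 12.7% over mixed windows. As a percent of the DMSO level, the medians were 32.9% (quartiles 23.8 and 46.8) and 24.8% (19.5 and 31.0). The 12 windows near imprinted genes had a median of 45.7% and the other 88 uniform windows one of 30.5%. Pooled over reads, uniform windows stood at 23.7% (23.4 to 23.9) and kept 45.8%, but this value rests on few windows of very high coverage. Without the 9 uniform windows over 1.5 times the mean coverage, left out only once the values were known, the pooled level was 18.9% and the kept share 37.7%, while the median stayed at 32.9%. Mixed windows pooled to 13.6% and 26.4%. With 1 library per group these are descriptions, and no test of the difference between kinds of window was made.

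The number of CpGs in a window moved with the kept share, so windows were compared within ranges of it. With 15 to 19 CpGs, uniform windows kept a median of 27.1% and mixed ones 24.0%. With 20 to 29 CpGs the values were 30.5% and 25.9%. With 30 or more they were 48.7% over 31 uniform windows (quartiles 37.4 and 54.6) and 29.8% over 2776 mixed ones (23.6 and 37.1). Among windows of 30 or more CpGs that stood at 80 to 100% in the 3 libraries, the median was 37.1%, and at 60 to 80% it was 35.8%. The uniform windows with 30 or more CpGs thus lay above each of these classes in the median, and their quartiles overlapped those of the class at 80 to 100% (29.6 and 45.5). Of the 31, 8 were near imprinted genes and kept a median of 49.7%; the other 23 kept 46.1%. The range of 30 or more CpGs is open, and narrower ranges were added after the values were seen. With 30 to 39 CpGs the medians were 45.2% over 16 uniform and 29.1% over 2163 mixed windows, with 40 to 49 CpGs 42.2% over 10 and 31.8% over 429, and with 50 or more 54.6% over 5 and 44.6% over 184. In the last of these the uniform windows still had more CpGs, at a median of 66 against 56, and the quartiles of the mixed windows (30.9 and 52.4) came close to those of the uniform ones (53.1 and 62.5). Below 30 CpGs the order against the more methylated classes was the other one. With 15 to 19 CpGs uniform windows (42) lay below the class at 80 to 100%, which kept 31.8%, and with 20 to 29 CpGs (27 windows) their 30.5% lay below its 33.3% and level with the 30.5% of the class at 60 to 80%. Over all numbers of CpGs the median of uniform windows, 32.9%, was level with the 32.8% of the class at 80 to 100%.

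**Figure D4:**
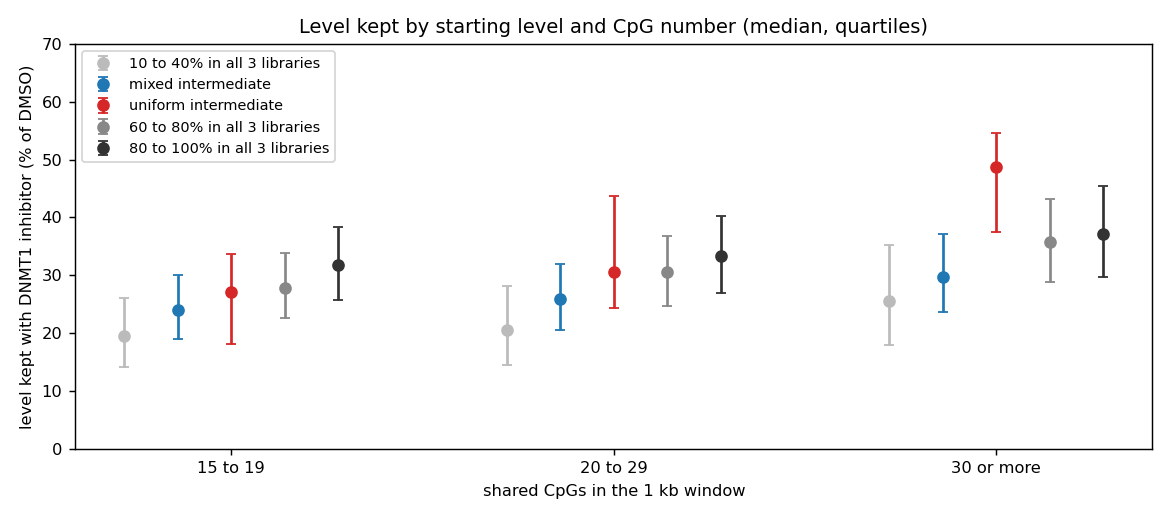
Level with the DNMT1 inhibitor as a percent of the DMSO level, by the number of shared CpGs in the window and by the level in the 3 choosing libraries. Points are medians over windows and bars are quartiles. The uniform windows reach 48.7% with 30 or more CpGs, above 37.1% in windows at 80 to 100%, and lie below that class at 30.5% with 20 to 29 CpGs and 27.1% with 15 to 19.

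Single CpGs of like level were also compared, without regard to the number of CpGs in the window. CpGs at 30 to 70% kept 47.7% of the DMSO level in uniform windows (39.2% without the windows of high coverage) and 51.9% in those near imprinted genes, against 21.7% in mixed windows. In the mixed windows, CpGs under 30% kept 17.3% and CpGs over 70% kept 29.3%. Within the uniform windows, CpGs at 30 to 70% thus kept more than the CpGs over 70% of mixed windows. With the inhibitor, 34.9% of the CpGs at 30 to 70% near imprinted genes were still over 30%, against 23.4% in the other uniform windows and 4.13% in mixed windows.

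The highest and the lowest DNMT1 inhibitor levels of uniform windows lay outside the imprinted list. The highest was 42.8% (39.2 to 46.5) from 8207001 to 8208000 on chromosome 21, against 56.3% in DMSO, over 36 of 145 CpGs. Next came 35.02% from 8218001 on the same chromosome and 34.8% on chromosome 3 from 75669001, near FRG2C, where coverage was 3.57 times the mean. Both chromosome 21 windows lie in the lncRNA ENSG00000278996, which is annotated across a copy of the 5.8S ribosomal RNA gene. The window after the second, from 8219001, had 14.3 times the mean coverage (386 to 461 reads per CpG) and read 58.5%, 55.1%, 59.3% and 30.1% over 82 CpGs. The windows from 8207001 and 8218001 had no such excess, at 0.517 and 0.630 times the mean. Reads of repeated sequence can come from several copies, and whether the levels of these 4 windows mix copies was not tested. Windows 862 and 3862 bp from TLX3, a homeobox gene on chromosome 5, followed at 32.8% and 32.9%, against 55.6% and 51.3% in DMSO, over 23 and 69 CpGs. Their coverage was 0.658 and 0.717 times the mean.

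At the other end, a window from 136621001 on chromosome 9, 3820 bp from LINC01451, fell from 42.9% to 3.72% over 16 CpGs. Windows on chromosome 7 from 135800001, on chromosome 22 from 49387001, on chromosome 2 from 238296001 and on chromosome 2 from 10432001 stood at 5.51%, 5.84%, 6.27% and 6.75% with the inhibitor. Their DMSO levels were 51.4%, 48.9%, 50.5% and 55.8%. Over the uniform windows 18 kept under 20% of the DMSO level, none of them near an imprinted gene, and 23 kept 50% or more, 4 of them near one. An even intermediate level in the 3 libraries therefore went with kept shares from 8.67% to 76.1%, the upper value being that of the window from 8207001 on chromosome 21. Only 12 of the 100 uniform windows lay near imprinted genes, so nothing is read from the small counts near them. Among mixed windows the lower quartile of the kept share was 19.5%, so keeping under 20% was not particular to uniform windows.

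Some uniform windows outside the list are described here that were picked after their values were seen, 3 of them close to known imprinted loci. A window on chromosome 18 from 80147001, in PARD6G-AS1 and ADNP2 outside their exons and classed as a promoter window, had 51 CpGs of which 98.0% were at 30 to 70%. It read 52.3%, 59.9%, 51.4% and 31.8% (29.7 to 34.0). One over exon 6 of CMKLR2-AS on chromosome 2, from 206263001 and 10663 bp from ZDBF2, read 56.0%, 50.8%, 47.0% and 25.8%. One in PWRN1, a non-coding gene of the Prader-Willi region on chromosome 15, from 24427001, read 48.8%, 46.4%, 43.4% and 25.9%. Away from such loci, a window on chromosome 20 from 34476001 lies within ITCH, a ubiquitin ligase gene, outside its exons. It holds the start and exon 1 of ENSG00000277558 and so counts as a promoter window. It had 97.4% of its CpGs in range and read 49.1%, 44.5%, 47.9% and 23.8%. Its neighbours on either side stood at 87.0% and 92.7%. ATF7IP2, at its start on chromosome 16, read 54.0%, 43.1%, 43.8% and 19.9% over 30 of 62 CpGs. HIC1, a transcriptional repressor, read 44.6%, 49.7%, 57.9% and 25.0% over 30 of 86 CpGs in exon 2, and CDKN2B, a cell-cycle inhibitor, read 57.0%, 49.3%, 58.4% and 20.4% over 33 CpGs in exon 2.

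By position, 66 of the 100 uniform windows overlapped a gene, 30 overlapped an exon and 16 held a gene start. Promoters, taken as 1000 bp before to 500 bp after a start, made up 22% of uniform windows, 6.39% of mixed windows and 8.68% of all windows with 15 or more CpGs. Uniform windows were found on every autosome, with 1 to 8 on each. The uniform windows were richer in GC, at a median of 52.7% against 48.9% in mixed windows, and had a higher ratio of observed to expected CpGs, at 0.554 against 0.331. A GC content of at least 55% with a ratio of at least 0.65, a strict island composition, was met by 23 of 100 uniform windows, 0.996% of mixed windows and 3.16% of all dense windows. In 24 uniform windows under 50% of the CpGs of the reference were shared by the 4 libraries, and 3 of these were the GNAS windows from 58839001, 58854001 and 58888001. Those 24 kept a median of 40.5% and the other 76 kept 30.03%, so the part of the window that was measured moved with the kept share; its role was not tested.

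The letters TGCCGC, known as the core bound by ZFP57, were searched on both strands. They were present in 33 of 100 uniform windows, in 6 of the 12 near imprinted genes, in 16.0% of mixed windows and in 17.3% of all windows with 15 or more CpGs. Composition moves with this count. Among windows of strict island composition the letters were found in 11 of 23 uniform windows (47.8%) and in 58.5% of all dense windows. Outside that composition they were found in 22 of 77 (28.6%) and 15.9%. The NAP1L5 window held 6 matches and the PEG10 window none. A match describes the sequence and is not a measured site.

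The windows were chosen at 40 to 60%, and each therefore lies below the autosomal level of 60.3% in DMSO, so higher levels beside them are no finding and the profiles are a description. Near imprinted genes the mean DMSO level was 47.4% in the window, 65.3% in the kb before and 64.1% in the kb after, and both neighbours exceeded 70% at 4 of 12 windows (PPIEL, NAP1L5, FANCC and GNAS from 58839001). Of the neighbours of all uniform windows 31.7% stood over 70%, 54.3% at 30 to 70% and 13.98% under 30%. Mixed windows lay mostly in surroundings of like level, with 72.4% of neighbours at 30 to 70%. For mixed windows without a step, the mean in DMSO was 51.4% in the window and 49.7% at 5 kb on either side. Stepped windows, like uniform ones, had higher surroundings, with 50.8% in the window and 58.6% and 58.2% at 5 kb. Both neighbours exceeded 70% at 9.96% of stepped windows and at 7.79% of the uniform windows away from imprinted genes. Stepped windows had 1 neighbour under 30% and the other over 70% in 15.01% of cases, against 2.12% of mixed windows without a step. Around imprinted windows the DNMT1 inhibitor level was 22.4% in the window, 25.1% and 24.4% in the adjacent kb, and 18.9% and 14.6% at 5 kb. The lower DMSO level of the windows was fixed by the rule, so the depths of the dips are not compared.

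**Figure D5:**
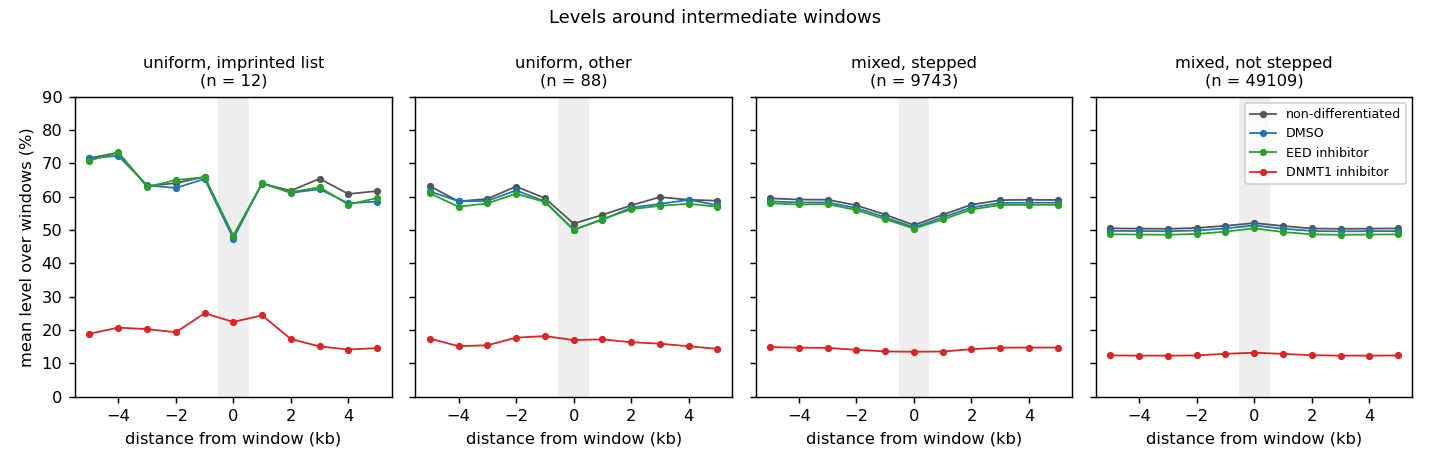
Mean methylation level in percent over windows against distance in kb, for uniform windows near imprinted genes (12), other uniform windows (88), and mixed windows with a step (9743) and without (49109), 1 line per library. The central window is shaded. Near imprinted genes the DMSO mean is 65.3% in the kb before and 47.4% in the window, where the rule sets its range, and the DNMT1 inhibitor means stand at 25.1%, 22.4% and 24.4%.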

How the data were processed

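Genomic DNA of 4 HUDEP-2 cultures, 1 per group, had received lambda DNA before bisulfite conversion, and Accel-NGS Methyl-Seq libraries were prepared from it, per the labels' protocols. The submitters' processing notes name Trim Galore 0.6.7, cutadapt 4.1, Bowtie2 2.1.0, Bismark, methylKit and hg38, without roles; removal of duplicates is not given in the sources used here. Each deposited table lists CpGs with a coverage count of reads and the percent of C and T, per the file headers, and no listed CpG has fewer than 10 reads. Methylated reads were recovered as the deposited percent times the deposited coverage count, rounded. CpGs under 10 reads are missing. Unremoved duplicates or unconverted ends could move levels.

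CpGs of chromosomes 1 to 22 in all 4 tables (91.6% of those listed in any) were summed in 1 kb windows, and a level is methylated reads over all reads. Windows with 3 or more CpGs were compared between the DNMT1 inhibitor and DMSO libraries by two-sided Fisher's exact tests with Benjamini-Hochberg adjustment (Python 3.11.15, numpy 2.4.6, scipy 1.17.1, numba 0.67.0). The code was tested on simulated data. Genes are those of GENCODE 44. The kept share is the DNMT1 inhibitor level as a percent of the DMSO level. Relative coverage is the window's mean coverage over that of all shared CpGs.

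The windows, lists and tests were chosen with earlier results of these data known. Windows were named by rule: uniform windows within 5 kb of listed imprinted genes, the longest runs outside that list (only 1 run exceeded 1 window), the 5 highest and 5 lowest uniform windows with the DNMT1 inhibitor and the 3 mixed windows with the most CpGs. Other names were chosen after their values were seen and are given as such in the text. Sequences came from the hg38 reference. Alternatives shifted the windows, changed CpG, coverage, level and evenness limits, weighting, reference library, test and gene distance, and left out windows of high coverage. Another left out chromosome 18 and chromosome 10 beyond 100 Mb.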

Additional observations from a re-analysis of the deposited data

How the results depend on the processing

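No paired analysis was possible because each group has 1 library, and for the same reason no library could be left out as a replicate. Of 73 alternatives of the 6 main results, 45 moved the value, and the cause was not tested. A count was taken as moved when it changed by more than 1.5 times. The pooled level was taken as moved outside its main Wilson interval (23.4 to 23.9%), and the kept share outside that interval over the DMSO level. That interval is narrow, so small shifts count as moved and the total mixes unlike measures. In what follows the numbers of intermediate windows, of uniform windows, of windows called lower and of imprinted genes with a uniform window are given, then the pooled DNMT1 inhibitor level of uniform windows and their kept share. CpGs with at least 20 reads gave 14295, 47 and 14102 windows, 9 genes, 24.5% and 46.4%. At least 20 CpGs per window gave 19596, 58 and 19120 windows, 10 genes, 25.6% and 49.2%. Levels of 45 to 55% gave 18741, 31 and 18524 windows, 4 genes, 18.9% and 38.1%. Levels of 35 to 65% gave 100523, 175 and 98490 windows, 23 genes, 22.7% and 44.7%. Leaving out chromosome 18 and chromosome 10 beyond 100 Mb gave 55512, 96 and 54639 windows, 12 genes, 23.6% and 45.7%. With 50% of CpGs inside 30 to 70%, uniform windows numbered 4542, at 22 genes, with 14.1% and 27.3%. With 90% they numbered 16, at 6 genes, with 27.1% and 55.7%. With 75% in each of the 3 libraries on its own they numbered 22, at 10 genes, with 26.7% and 53.1%. Genes numbered 16 with windows shifted by 500 bp, 14 with unweighted means and 12 without CpGs over 60 reads. The level and kept share were 20.5% and 39.8% with windows shifted by 500 bp, 18.7% and 37.7% without CpGs over 60 reads, 18.5% and 36.7% as unweighted means over CpGs, and 18.9% and 37.7% without windows over 1.5 times the mean coverage, an alternative chosen after the data were seen. The kept share was 43.9% against non-differentiated cells, 44.7% against the mean of 3 libraries and 32.9% as the median over windows. Reads divided by the number of CpGs called 33333 windows. Of 80 alternatives of 22 named windows, 68 left the call as it was, 8 lost it, 4 gained it and none changed sign. A window without a call at the start counts as unchanged even where its p rose. With reads divided by CpGs, the adjusted p by Fisher's exact test was 0.560 at PEG10 and 0.295 at MEG3, both counted as unchanged. Named windows without a value at 20 or more reads per CpG are not in the count. Unlisted CpGs under 10 reads limit what the windows show.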

Other observations

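Some windows at listed imprinted genes were even but outside the level range, and those named here were picked after their values were seen. Of the windows with 15 or more CpGs, 113 had at least 75% of their CpGs at 30 to 70% but a level outside 40 to 60% in at least 1 of the 3 choosing libraries, and 17 of these (3 of them adjacent to one another) lay at listed imprinted genes, against 0.464% of all windows with 15 or more CpGs. They include 3 adjacent windows of PEG3 and ZIM2 on chromosome 19, which kept 55.9%, 48.0% and 41.3% of the DMSO level with the DNMT1 inhibitor. Others lay directly beside uniform windows, at PEG10 from 94657001, MEG3 from 100825001, ZNF597 and NAA60 from 3443001 and GNAS from 58855001. Their lowest choosing library stood at 35.3%, 38.7%, 38.2% and 36.7%, below the limit of 40%. The window of KCNQ1OT1 on chromosome 11 read 33.8%, 39.1%, 43.8% and 30.7% in the non-differentiated, DMSO, EED inhibitor and DNMT1 inhibitor libraries, and kept 78.5%. The window after the SNURF and SNRPN start on chromosome 15 read 43.3%, 44.9%, 35.1% and 25.9%. An intronic window of ZNF331 with 85 CpGs read 66.1%, 65.7%, 62.7% and 46.3%. VTRNA2-1, a non-coding RNA whose methylation is known to vary between people, read 50.0%, 30.3%, 37.2% and 8.01%.

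The start windows of listed imprinted genes held other levels as well. Of 39 such windows with 15 or more CpGs, 5 stood at 40 to 60% in the 3 libraries, 10 under 10% and 6 over 80%. Among the last, MEST stood at 92.6% in DMSO and at 62.4% with the DNMT1 inhibitor, PEG13 92.4% and 61.2%, and NNAT 88.0% and 56.4%. The other 3 were those of GRB10, of HYMAI and PLAGL1, and of PPIEL. PPIEL has 2 annotated entries whose starts lie in different windows, and both were counted: that of the lncRNA is the uniform window at 55.3% in DMSO, and that of the pseudogene entry stood at 92.5% and 41.2%. The 6 kept 38.97% to 67.3% of the DMSO level. These values were picked out after they were seen, and no explanation of them was tested.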
